A study of Mus musculus and Mus musculus
Oryx dammah with 30 samples.

Results

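Histone variants and the chaperones that deposit them were followed after somatic nuclei had been transferred to arrested mouse embryos. The 10 genes, taken by name from the gene tables, were H3f3a, H3f3b, Hira, Asf1a, Asf1b, Chaf1a, Chaf1b, H2afz, H2afx and H1foo, of 53023 genes listed for each four-cell experiment and 55364 for the two-cell experiment. All 10 were found in all 3 tables. The two-cell table names H2afz, H2afx and H1foo as H2az1, H2ax and H1f8, and these were matched by gene identifier.

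Chromatin is renewed in 2 ways. During DNA replication, CAF-1, whose large and middle subunits are encoded by Chaf1a and Chaf1b, places newly made histone H3 behind the fork. Outside replication, the HIRA complex deposits the replacement H3 that H3f3a and H3f3b both encode as one and the same protein. The ASF1 proteins, encoded by Asf1a and Asf1b, carry H3 together with H4 to both pathways. H2afz encodes a variant that replaces H2A around transcription start sites, H2afx encodes the H2A variant that is phosphorylated at DNA breaks, and H1foo encodes the linker histone of the oocyte.

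C2C12 myoblasts, a cell line from C3H mice, were the donor cells. Recipients were in vitro fertilized embryos of C57BL/6 eggs and DBA/2 sperm, and all groups were held with 0.1 μg/mL demecolcine, which stops the cell cycle, and cultured for 24 h. Four-cell embryos received nuclei at 46–49 hours post insemination (hpi), ended at 70 hpi and were cultured without (3 libraries) or with (3 libraries) α-amanitin, a toxin that blocks RNA polymerase II, each library being a pool of 3 embryos. Groups labelled D and DR (3 libraries each, pools of 4 four-cell embryos, no α-amanitin) belong to the experiment on transfer before against after DNA replication. The labels do not say which letter is which, so no direction with respect to replication was drawn. Two-cell embryos received nuclei early (21–24 hpi, cultured to 45 hpi) or late (30–33 hpi, cultured to 54 hpi), without (6 libraries) or with (6 libraries) α-amanitin, in pools of 5. The two-cell columns form 2 sets, named NT and Am or R and RAm, with 3 untreated and 3 treated libraries each. Their names do not say which set is early and which is late. The R columns were taken as untreated because the 6 columns that carry Am account for all 6 treated libraries.

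Each library held the embryo's own RNA together with that of the donor nuclei, so a value is the sum of both. A lower FPKM (fragments per kilobase of gene per 1000000 counted) in such bulk libraries cannot tell fewer transcribing nuclei from less RNA per nucleus. Between 1136771 and 3101002 reads per library were counted in the C2C12 four-cell table, 6059974 to 19181387 in D, 2603946 to 4252278 in DR and 4712268 to 10503779 in the two-cell table. Of 8 embryo and oocyte markers, 7 or 8 reached an FPKM of 1 in at least 1 library of every group. The summed FPKM of 9 myoblast markers stayed between 18.1 and 463 per library, while 7 cumulus and granulosa markers summed to at most 2.69. Col1a1, Myf5 and Tagln were at 0 in the untreated four-cell libraries of the α-amanitin experiment. In DR only Myf5 was at 0 in every library, and in D no myoblast marker was. Myod1 was at 0 in the R and RAm libraries of two-cell embryos. In four-cell embryos 0 of the 4 myoblast markers tested were called without against with α-amanitin, with differences from -1.84 for Acta2, a smooth muscle actin (151 FPKM treated and 44.9 untreated by mean), to 0.42 for Myod1. In two-cell embryos 1 of the 4 tested was called, Col3a1, a collagen gene (3.08 ± 0.40, adjusted p 0.000141), while Vim, Acta2 and Des were at 0.10, 0.14 and 0.72. Among NT and Am alone Col3a1 (3.27, called), Acta2 (1.51), Des (0.85) and Vim (0.64) were all above 0, with a median of 1.18 beside 0.26 over all genes. Among R and RAm alone Col3a1 was at 2.89 (called), and Vim (-0.45) and Acta2 (-1.23) were below 0. With α-amanitin the embryo and oocyte markers summed to 12170 to 16080 in four-cell libraries against 8718 to 9901 without in the same experiment. In two-cell libraries they summed to 8469 to 12330 in NT, 6900 to 8067 in Am, 7432 to 9098 in R and 1378 to 3264 in RAm. Nearly all of each sum outside RAm was Dppa3, a maternal factor, at means of 9709, 7140, 7977 and 943 in the same order, and most of the other markers went the opposite way, as counted beside H1foo below. The part of these markers in the results was not tested.

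Promoter windows from RefSeq (GRCm38.p6), running from 250 bases before to 50 bases after the annotated start, were held for 9 of the 10 genes. H3f3b, Asf1b and H1foo are shown because H3f3b did not overlap between untreated and treated libraries over the whole two-cell table, Asf1b was the gene called in four-cell embryos, and H1foo went in the opposite direction. Capitals mark the CCAAT box, the pentamer bound by the factor NF-Y, as CCAAT or, on the other strand, ATTGG. The H3f3b window lies within the gene as the tables place it (chromosome 11, 116021912 to 116027962, mm10). Most of the Asf1b window also lies within its gene as placed there (chromosome 8, 83955507 to 83970197). The windows are chr11:116024455-116024754 on the minus strand for H3f3b, chr8:83955444-83955743 on the plus strand for Asf1b and chr6:115944681-115944980 on the plus strand for H1foo.
H3f3b: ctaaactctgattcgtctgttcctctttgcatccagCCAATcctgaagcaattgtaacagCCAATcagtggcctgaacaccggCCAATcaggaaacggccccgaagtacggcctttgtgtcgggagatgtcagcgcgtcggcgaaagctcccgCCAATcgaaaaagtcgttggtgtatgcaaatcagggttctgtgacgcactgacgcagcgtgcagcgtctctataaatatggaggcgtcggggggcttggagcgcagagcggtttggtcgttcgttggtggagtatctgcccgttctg
Asf1b: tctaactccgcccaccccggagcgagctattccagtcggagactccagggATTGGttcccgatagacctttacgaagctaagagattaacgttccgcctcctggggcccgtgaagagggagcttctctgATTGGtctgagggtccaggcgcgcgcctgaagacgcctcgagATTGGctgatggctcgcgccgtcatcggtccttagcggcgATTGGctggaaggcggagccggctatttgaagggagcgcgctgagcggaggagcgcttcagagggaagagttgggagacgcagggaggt
H1foo: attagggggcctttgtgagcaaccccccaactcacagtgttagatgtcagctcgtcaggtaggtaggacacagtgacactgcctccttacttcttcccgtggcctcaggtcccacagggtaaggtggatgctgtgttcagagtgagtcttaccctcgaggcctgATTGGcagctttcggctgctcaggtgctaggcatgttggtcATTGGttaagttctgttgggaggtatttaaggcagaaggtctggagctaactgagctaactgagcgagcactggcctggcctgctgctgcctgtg
H3f3b and Asf1b each held 4 CCAAT boxes, a number reached by 1.06% of 32851 promoter windows. H1foo held 2, a number reached by 11.7%. In all, 7 of the 9 windows held at least 1, against 37.4% of all windows, the 2 without being those of Hira and Chaf1b. GGCGGGAA, an E2F-type motif found in 2.19% of windows, occurred in Chaf1a, and TTTGAA, found in 17.9%, occurred in Asf1b. Neither TTCGAA (1.56% of windows) nor CCGCCATT (0.758%) occurred in any of the 9 windows. Both strands were searched for every motif, and a match describes these letters only.

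Several members share sequence with other genes, which limits how far their reads can be assigned. In the GENCODE transcripts, 19 pseudogenes on other loci matched H3f3a over at least 200 bases at 95% identity or more. H3f3b had 2 such pseudogenes, H2afz 4, with Tmcc1 and Gm26623 besides, and H2afx 1, while none was found for Hira, Asf1a, Asf1b, Chaf1a, Chaf1b or H1foo. H3f3a held 88.8% to 93.3% of the reads of itself and its copies in the C2C12 four-cell libraries, 34.5% to 35.7% in the D and DR libraries and 44.0% to 46.3% in the two-cell libraries. Within a table this share hardly moved, so the levels of H3f3a were compared within tables only. For H3f3b the share was at least 92.3% in every library. Chaf1a shares 2542 transcript bases with Ubxn6, the gene it overlaps, Asf1a shares 960 with Mcm9, Hira 2416 with Gm28539 and H3f3a 644 with Gm17275 in the same way. Chaf1a is counted over 8854 bases in the two-cell table and 3308 in the others, so its FPKM cannot be set side by side between tables.

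In untreated four-cell embryos H3f3b and H2afz were the most abundant of the 10 transcripts per length. H3f3b stood at 710 ± 132 FPKM (SD, n = 3) and H2afz at 407 ± 40.2. Asf1b at 105 ± 44.6 and H3f3a at 99.3 ± 6.60 did not differ beyond their spread, with H3f3a subject to the limit of shared reads given above. H2afx at 42.4 ± 16.7 and Asf1a at 36.3 ± 4.99 likewise overlapped, followed by Chaf1b at 16.03 ± 0.787 and Chaf1a at 7.11 ± 2.58. H1foo at 1.76 ± 1.43 and Hira at 1.05 ± 0.194 were lowest and overlapped each other.

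The comparison without against with α-amanitin in four-cell embryos asked which RNAs depend on new transcription by RNA polymerase II. One of the 10 genes, Asf1b, was called (limma on log2(FPKM + 1), Benjamini-Hochberg adjusted p under 0.05), while 12.2% of the 9884 genes tested were called, 11.1% higher and 1.13% lower without the inhibitor. Asf1b was 6.41-fold higher without the inhibitor, and the other 9 genes, including H3f3a, H3f3b and Hira, were not called. The median difference of the 10 was 0.48 on the log2 scale, beside 0.37 over all genes tested. Median-of-ratios scaling, which divides each library by its typical ratio to the others, moved the latter to 0.13 and the share of called genes that were higher from 90.7% to 78.1%. Untreated libraries had reads on 15310 to 16396 genes and treated ones on 11872 to 14016, and the part of this in the results was not tested.

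Asf1b, the ASF1 form of dividing cells, had FPKM of 151, 102 and 62.3 in the untreated libraries named S15, S17 and S7, and 14.8, 27.5 and 6.999 in the treated libraries S16, S18 and S8. Its lowest untreated library was thus above its highest treated one, with a difference of 2.70 ± 0.50 (SE) on the log2(FPKM + 1) scale and an adjusted p of 0.0144. The call was lost when any untreated library was left out (adjusted p 0.0715 without S15, 0.0658 without S17 and 0.0525 without S7) and when no filter on low values was set (0.0513), while the difference stayed between 2.24 and 3.15. Its paralogue Asf1a was at 32.3, 41.9 and 34.7 untreated and at 26.3, 13.8 and 5.71 treated. These groups did not overlap either, but the difference of 1.41 ± 0.49 had an adjusted p of 0.0925. Without the treated library S16 it was 1.90, with an adjusted p of 0.0264.

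Chaf1a and Chaf1b, for the large and the middle CAF-1 subunit, were higher in every untreated library than in any treated one without being called. Chaf1a had FPKM of 10.1, 5.78 and 5.45 against 3.90, 2.13 and 0.190, the last resting on 1 read. The difference was 1.58 ± 0.58 (adjusted p 0.108), and it was called once S16 was left out (2.03, adjusted p 0.0484). Chaf1b stood at 15.6, 16.9 and 15.5 against 13.6, 10.2 and 5.54, a difference of 0.73 ± 0.38 (adjusted p 0.244).

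The genes for replacement H3 and its chaperone were not called. H3f3a was higher with α-amanitin, at 111, 122 and 145 FPKM, than without, at 93.1, 106 and 98.6, with no overlap, and the difference was -0.34 ± 0.22 (adjusted p 0.356). H3f3b had 643, 863 and 625 untreated and 628, 856 and 415 treated, so that the groups overlapped (0.21 ± 0.28, adjusted p 0.655), and its sign turned under median-of-ratios scaling, to -0.10. Hira, the chaperone of this variant, lay between 0.859 and 1.25 FPKM without and between 0.430 and 1.64 with the inhibitor, on 3 to 28 reads per library. The ratio of H3f3b to H3f3a was 7.13 ± 0.910 in untreated and 5.17 ± 2.12 in treated libraries, with shared reads as assigned in that experiment.

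The remaining variants overlapped between the groups. H2afz spanned 367 to 447 FPKM untreated and 301 to 444 treated (0.23 ± 0.22, adjusted p 0.537), turning to -0.09 under median-of-ratios scaling. H2afx was at 24.7, 58.0 and 44.4 against 16.1, 22.9 and 30.9 (0.80 ± 0.39, adjusted p 0.214). H1foo was read at most 21 times per library, between 0 and 11.01 FPKM. In all, 4 of the 10 genes were without overlap and higher untreated, 1 was higher treated and 5 overlapped, where 35.2% of all genes tested were without overlap, 27.6% higher untreated and 7.56% higher treated. With 3 libraries against 3, an exact permutation test cannot give a p below 0.1.

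**Figure D1:**
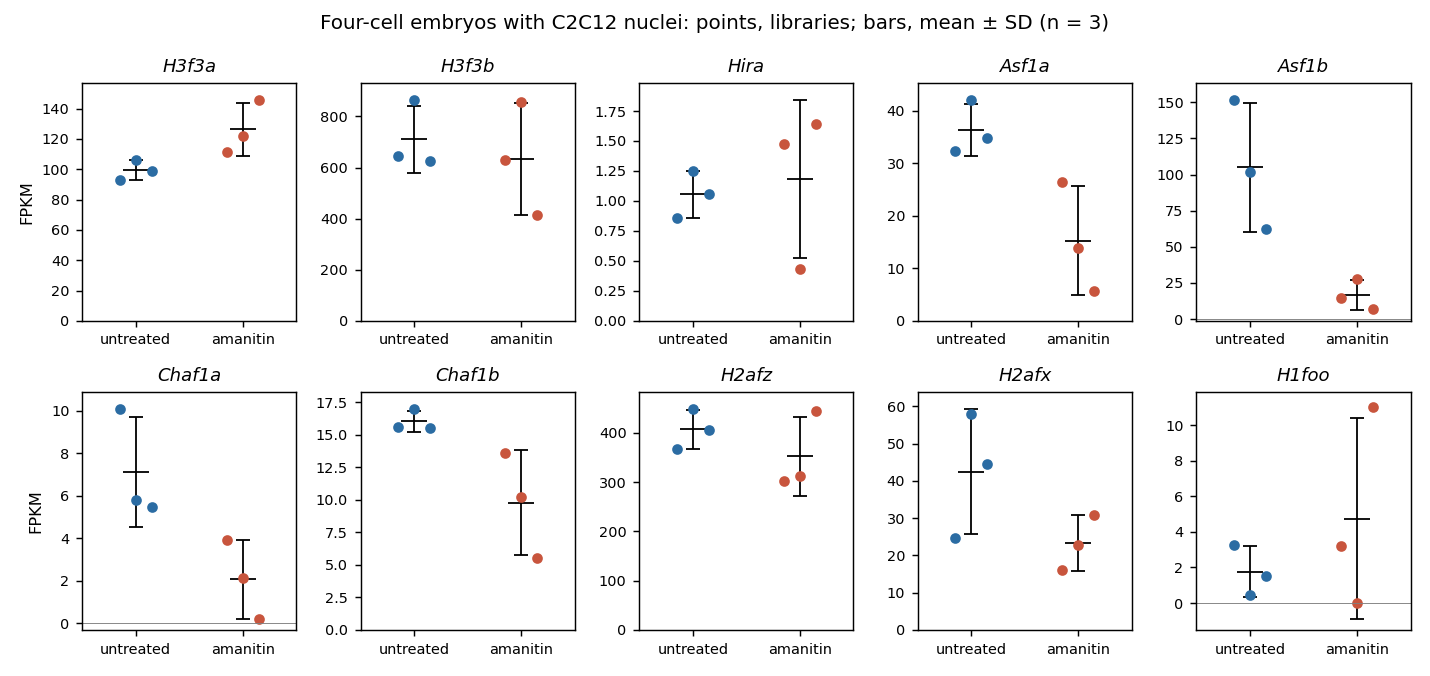
FPKM of the 10 genes in each four-cell library that received C2C12 nuclei, without (blue) and with (red) α-amanitin, 1 panel per gene with its own axis from 0; points are libraries and bars the mean ± SD of 3. Asf1b lies at 62.3 to 151 without and 6.999 to 27.5 with the inhibitor, while H3f3b, Hira, H2afz, H2afx and H1foo overlap.

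Other genes of the same pathways were counted from fixed lists. Of 12 tested genes that bind or pass on H3 and H4 with ASF1, 4 were higher without α-amanitin and 8 were not called, with a median difference of 0.90, where 11.1% of all genes tested were higher. Under median-of-ratios scaling 1 of the 12 was called. Beside Asf1b, the genes called before that scaling were Hat1, which acetylates new H4 (1.32 ± 0.37), Mms22l, a repair factor of replication forks (1.85 ± 0.49), and Dnajc9, an H3 and H4 co-chaperone (1.05 ± 0.25). None of the 4 CAF-1 genes, the 5 HIRA and DAXX-ATRX genes, the 4 FACT and SPT6 genes, the 11 H2A.Z exchange genes, the 2 linker histones or the 5 CENP-A genes was called. Among 8 acidic chaperones, Anp32a was higher (1.49 ± 0.30). Among 2 other H2A variants tested, H2afv, which encodes a second form of H2A.Z, was lower (-1.07 ± 0.23).

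The comparison of D with DR asked whether passing through DNA replication after transfer alters the transcriptome. None of the 10 genes was called, and 0% of the 14570 genes tested were called by limma, under any alternative run, while 897 genes had an unadjusted p under 0.05. Between the groups 4 genes did not overlap, 1 higher in D and 3 higher in DR, where 12.2% of all genes tested were without overlap, 3.99% higher in D and 8.21% higher in DR. The median difference of the 10 was -0.18, beside -0.02 over all genes.

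Chaf1a had the largest difference. Its FPKM was 5.71, 7.40 and 3.08 in D1, D4 and D5 and 9.98, 12.4 and 9.23 in DR1, DR2 and DR3, so every DR library was above every D library. The difference, D minus DR, was -0.90 ± 0.33 on the log2(FPKM + 1) scale, with an adjusted p of 0.788. Its partner Chaf1b overlapped, at 9.11, 6.16 and 14.1 against 10.9, 13.6 and 10.1. H2afx stood at 24.1, 29.4 and 25.7 in D and at 41.9, 60.1 and 33.9 in DR (-0.72 ± 0.27, adjusted p 0.788). Hira was at 1.70, 1.56 and 1.68 against 2.88, 2.19 and 2.57 (-0.42 ± 0.25, adjusted p 0.797). These 3 genes were the ones higher in DR. D libraries had more reads than any DR library, and reads on 24132 to 26334 genes against 20024 to 23526, and the part of depth in these differences was not tested.

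H3f3a was the 1 gene that stood higher in D, with 128, 143 and 144 FPKM against 91.8, 124 and 115 (0.33 ± 0.20, adjusted p 0.797). H3f3b overlapped widely, at 972, 476 and 901 in D and 958, 492 and 1159 in DR. Asf1b ranged from 15.9 to 62.4 in D and from 26.2 to 30.4 in DR, and Asf1a from 17.9 to 20.9 and from 14.9 to 20.6. H2afz lay between 554 and 729 in D and between 532 and 621 in DR. H1foo, on 3 to 18 reads per library, lay between 0.781 and 1.43 in D and between 0.959 and 1.67 in DR. Spike-in scaling turned the sign of 6 of the 10, Chaf1a, H2afx and Hira among them, with standard errors of 1.31 to 2.36, and moved the median of all genes to 1.41.

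**Figure D2:**
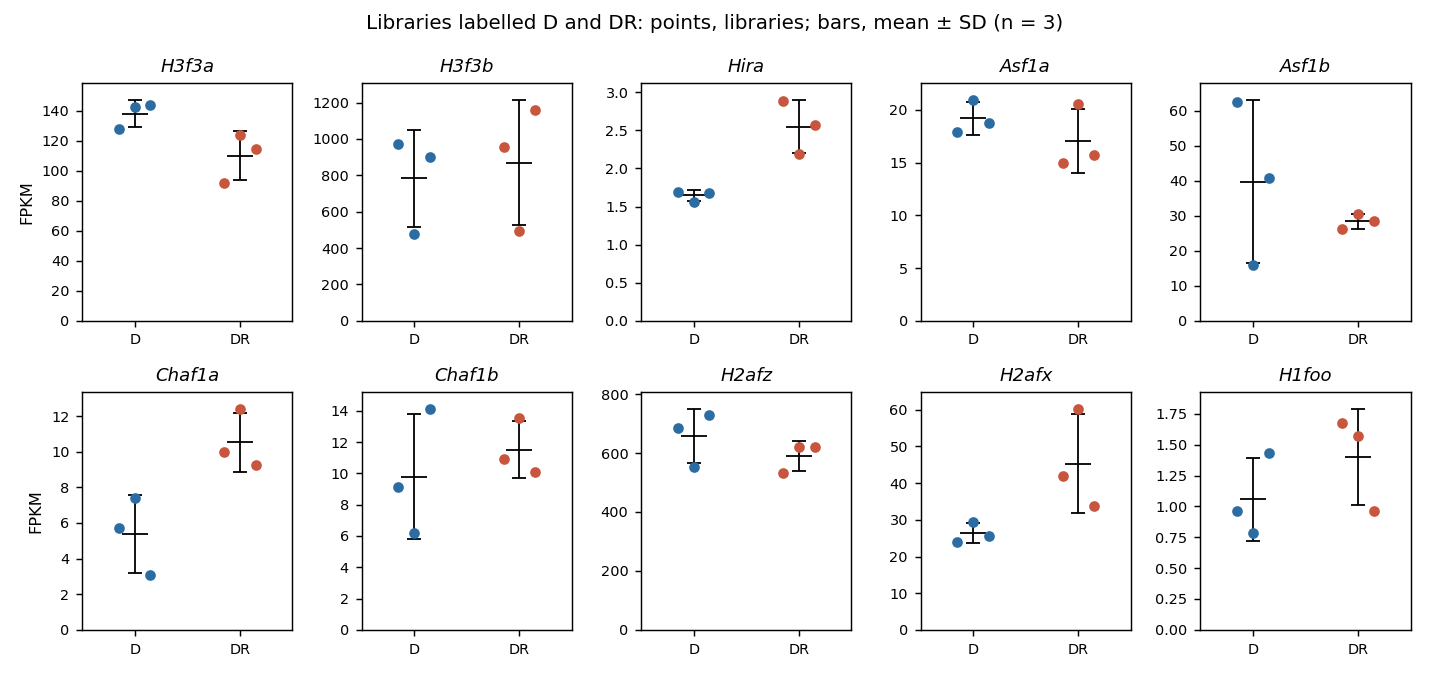
FPKM of the 10 genes in the libraries labelled D (blue) and DR (red), 1 panel per gene with its own axis from 0; points are libraries and bars the mean ± SD of 3. Hira, Chaf1a and H2afx are higher in every DR library and H3f3a is higher in every D library, and none passed the test across all genes.

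In two-cell embryos, over both sets of columns, 7 of the 10 genes were called between untreated and α-amanitin libraries, where 47.4% of the 17196 genes tested were. Higher without the inhibitor were H3f3b, H2afz, H3f3a, Asf1a, Hira and Chaf1a, and lower was H1foo. In each direction the background was 38.9% higher and 8.51% lower. Asf1b, Chaf1b and H2afx were not called, though Asf1b was when NT3, Am2 or Am3 was left out (adjusted p 0.0281, 0.0461 and 0.0380) and H2afx when R3 was (0.0471). The median difference of the 10 was 1.01, beside 0.67 over all genes, and the share of called genes that were higher was 82.1%, against 58.0% under median-of-ratios and 97.8% under spike-in scaling. The spike-ins took 2.38% to 6.26% of reads in untreated and 6.54% to 11.3% in treated libraries.

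Over all genes the median difference was 0.19 under median-of-ratios and 1.49 under spike-in scaling. H3f3a, H2afz, Asf1a and Chaf1a were not called under the former (adjusted p 0.0907, 0.102, 0.714 and 0.291), and Asf1b, Chaf1b and H2afx were called under the latter. Treated libraries had reads on 18073 to 21834 genes and untreated ones on 23603 to 25607, and the part of depth and of the spike-in share in these results was not tested.

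The pooled values combined 2 column sets that differed, so each is given. Among NT and Am columns alone 2 of the 10 genes were called, H3f3b higher and H1foo lower, where 16.9% of 14285 genes were called, 12.7% higher and 4.18% lower. Among R and RAm columns alone 8 were called, 7 higher and H1foo lower, where 76.8% of 14387 genes were called, 60.5% higher and 16.4% lower. Without overlap were 5 genes higher and 1 lower among NT and Am, where 26.8% and 11.2% of genes were (38% in all), and 7 higher and 1 lower among R and RAm, where 61.5% and 17% were (78.5% in all). The amanitin effect itself differed between the sets for 5 of the 10 genes (limma interaction term, adjusted p under 0.05), where 44.5% of all genes tested differed, 36% with a larger and 8.46% with a smaller difference in R and RAm. These were H3f3a, H3f3b, H2afz, Asf1b and Hira, each with a larger effect in R and RAm, and they were called as well under median-of-ratios and spike-in scaling.

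H3f3b was the 1 gene whose untreated and treated libraries did not overlap over all 12, where 19.2% of all genes tested were without overlap, 16.3% higher and 2.95% lower untreated. Untreated libraries ranged from 720.0 to 1032 FPKM (median 954) and treated ones from 25.8 to 299 (median 140.0). The difference was 3.22 ± 0.62 (adjusted p 0.00181, exact permutation p 0.00216, two-sided, the smallest that 6 against 6 can give). In the NT columns it read 996, 1010.3 and 720.0 against 299, 290.3 and 238 in Am, which is 3.29-fold higher (1.71 ± 0.20, adjusted p 0.00508). In the R columns it read 1032, 912 and 889 against 25.8, 41.7 and 37.5 in RAm, which is 27.0-fold higher (4.74 ± 0.23, adjusted p 6.14e-06). The effects differed by 3.03 ± 0.31 (adjusted p 1.76e-05).

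H3f3a, which encodes the same protein, overlapped over all 12 libraries, with untreated values from 195 to 253 (median 201) and treated values from 11.1 to 195 (median 91.1). Its NT values of 210, 195 and 253 lay above the Am values of 174, 195 and 154, 1 pair of which differed by less than 1 FPKM (0.33 ± 0.19, adjusted p 0.267). Its R values of 198, 205 and 195 lay far above RAm values of 11.1, 27.9 and 15.3, an 11.01-fold difference (3.49 ± 0.32, adjusted p 5.75e-05). Summed with its 19 pseudogene copies it stood at 1581 ± 40.2 reads per 1000000 in R and 140.0 ± 63.7 in RAm, without overlap, and at 1706 ± 244 in NT and 1385 ± 157 in Am, where the lowest NT library (1517) lay below the highest Am library (1543). The pooled difference of 1.91 ± 0.68 (adjusted p 0.0332) lost its call when any of 9 of the 12 libraries was left out, the adjusted p then reaching up to 0.0765, and without the filter on low values (0.0861). With the column set as a covariate in limma H3f3a was called (adjusted p 0.00706), as were 9537 of the 17196 genes tested. The ratio of H3f3b to H3f3a was 4.26 ± 1.24 in NT and 4.74 ± 0.412 in R, and 1.58 ± 0.118 in Am and 2.09 ± 0.519 in RAm. In these libraries H3f3a held 44.0% to 46.3% of the reads of itself and its copies, and H3f3b at least 92.3%. This ratio was therefore not set beside that of four-cell embryos. Summed with its copies H3f3b stood at 2894 ± 523 reads per 1000000 in NT.

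Hira, the H3.3 chaperone, was low throughout and nearly without reads in RAm. NT libraries had 1.03, 1.53 and 0.467 FPKM and Am libraries 0.256, 0.742 and 1.26, which overlapped (0.20 ± 0.34, adjusted p 0.712). R libraries had 2.51, 2.05 and 2.75 FPKM, about 156, 124 and 166 reads, whereas RAm libraries had 0, 0 and 1 read. That difference was 1.77 ± 0.16 on the log2(FPKM + 1) scale (adjusted p 6.05e-05), a scale that understates changes at such levels. The effect was larger in R and RAm by 1.56 ± 0.40 (adjusted p 0.00724).

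Neither ASF1 gene was called among NT and Am alone. Asf1a stood at 26.9, 16.8 and 15.8 in NT and 7.20, 13.1 and 10.2 in Am, and at 15.6, 31.6 and 15.3 in R and 2.33, 16.5 and 11.8 in RAm. It was about 2.00-fold higher without the inhibitor over both sets (1.04 ± 0.41, adjusted p 0.0483), was called in neither set alone, and lost its pooled call without any of 10 of the 12 libraries (adjusted p up to 0.103). The call was also lost without the filter on low values (adjusted p 0.0805), with a pseudocount of 0.1 (0.0558) and by limma-voom (0.0611). It was kept with the column set as a covariate in limma (adjusted p 0.0382). Asf1b did not separate NT (48.1, 24.4 and 14.04) from Am (27.5, 30.4 and 36.1), where its difference was -0.27 ± 0.41. It did separate R (76.0, 60.1 and 68.9) from RAm (13.9, 4.65 and 10.9), by 2.79 ± 0.37 (adjusted p 0.000301). The effect of α-amanitin on Asf1b was larger in R and RAm by 3.06 ± 0.59 (adjusted p 0.0014), and no difference between sets was called for Asf1a (0.29 ± 0.75, adjusted p 0.774).

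Chaf1a and Chaf1b were low by FPKM in two-cell libraries, where Chaf1a was counted over 8854 bases. Untreated libraries held 61.5 to 321 reads of Chaf1a and 92 to 297 of Chaf1b. Chaf1a read 3.06, 2.23 and 0.916 in NT, 0.743, 0.963 and 1.37 in Am, 2.36, 2.78 and 3.73 in R and 0.767, 0.166 and 1.16 in RAm. Over both sets the difference in Chaf1a was 0.90 ± 0.27 (adjusted p 0.0166), though it was 0.38 and not called under median-of-ratios scaling. The log2(FPKM + 1) scale understates changes at such levels. With a pseudocount of 0.1 the difference was 1.51 (adjusted p 0.0272), and by limma-voom 1.63 (adjusted p 0.0248). Chaf1b ran from 2.59 to 7.08 untreated (median 3.93) and from 1.48 to 3.92 treated (median 2.32), with a difference of 0.63 ± 0.29 (adjusted p 0.0859) that was called in R and RAm alone (0.99 ± 0.29, adjusted p 0.0158). Under median-of-ratios scaling Chaf1b turned to -0.05.

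H2afz was the second most abundant of the 10 after H3f3b in untreated R libraries and the most abundant in the NT, Am and RAm libraries by mean. It read 1018, 1011 and 1156 in NT and 792, 864 and 845 in Am, without overlap but not called (0.35 ± 0.15, adjusted p 0.155). It read 883, 970 and 684 in R and 50.1, 98.5 and 56.0 in RAm, 12.4-fold apart (3.66 ± 0.29, adjusted p 3.40e-05). The effects differed by 3.31 ± 0.34 (adjusted p 1.84e-05). The pooled difference was 2.00 ± 0.74 (adjusted p 0.0369) and lost its call without any of 9 of the 12 libraries, the adjusted p reaching up to 0.0875, and without the filter on low values (0.105). With the column set as a covariate in limma H2afz was called (adjusted p 0.0059). H2afx was at 5.95, 4.26 and 2.68 in NT against 2.00, 1.67 and 0.815 in Am (1.07 ± 0.36, adjusted p 0.0763), and at 3.04, 3.00 and 0.538 in R against 3.16, 1.52 and 1.23 in RAm (0.03 ± 0.45).

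H1foo went the other way. Its FPKM was 1.70, 3.96 and 3.51 in NT against 10.4, 6.70 and 7.18 in Am, 2.65-fold higher with the inhibitor (-1.19 ± 0.34, adjusted p 0.0494). In R it was 6.86, 6.14 and 4.54 against 25.3, 19.3 and 35.4 in RAm, 4.56-fold higher (-1.99 ± 0.29, adjusted p 0.000481). Within each set every treated library was above every untreated one, and over both sets 1 pair of libraries crossed, 6.86 untreated above 6.70 treated. The pooled difference was -1.59 ± 0.43 (adjusted p 0.0106, exact permutation p 0.00433, two-sided). Under spike-in scaling it was -0.34 and was not called (adjusted p 0.514). The gene was read 16 to 82 times per untreated and 51 to 297 times per treated library. Of 8 embryo and oocyte markers, 5 were also lower and 1, Dppa3, was higher without the inhibitor over both sets, where 8.51% of all genes were lower. Under spike-in scaling 0 of the 8 were lower and 1 was higher.

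**Figure D3:**
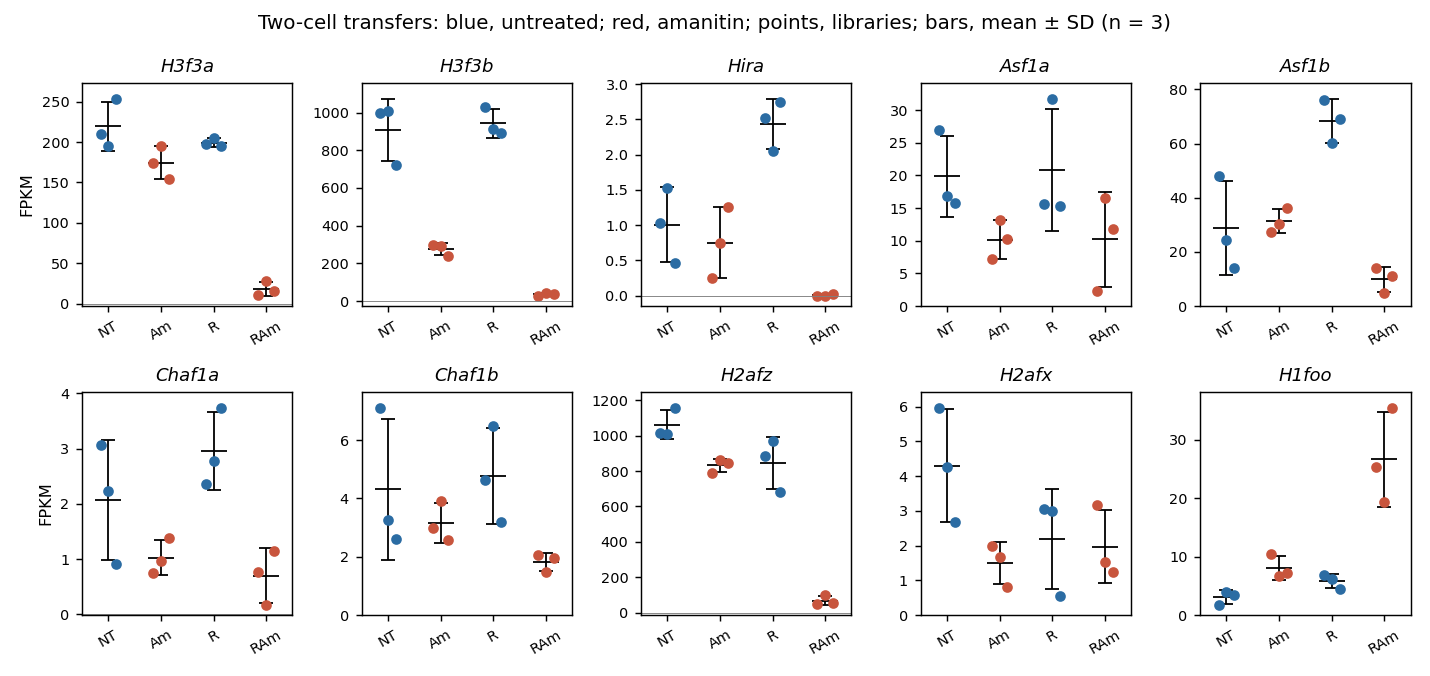
FPKM of the 10 genes in each two-cell library, by column set, without (NT and R, blue) and with (Am and RAm, red) α-amanitin, 1 panel per gene with its own axis from 0; points are libraries and bars the mean ± SD of 3. RAm libraries are lowest for H3f3a (11.1 to 27.9), H3f3b, Hira, Asf1b, Chaf1a, Chaf1b and H2afz by mean, and highest for H1foo (19.3 to 35.4).

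**Figure D4:**
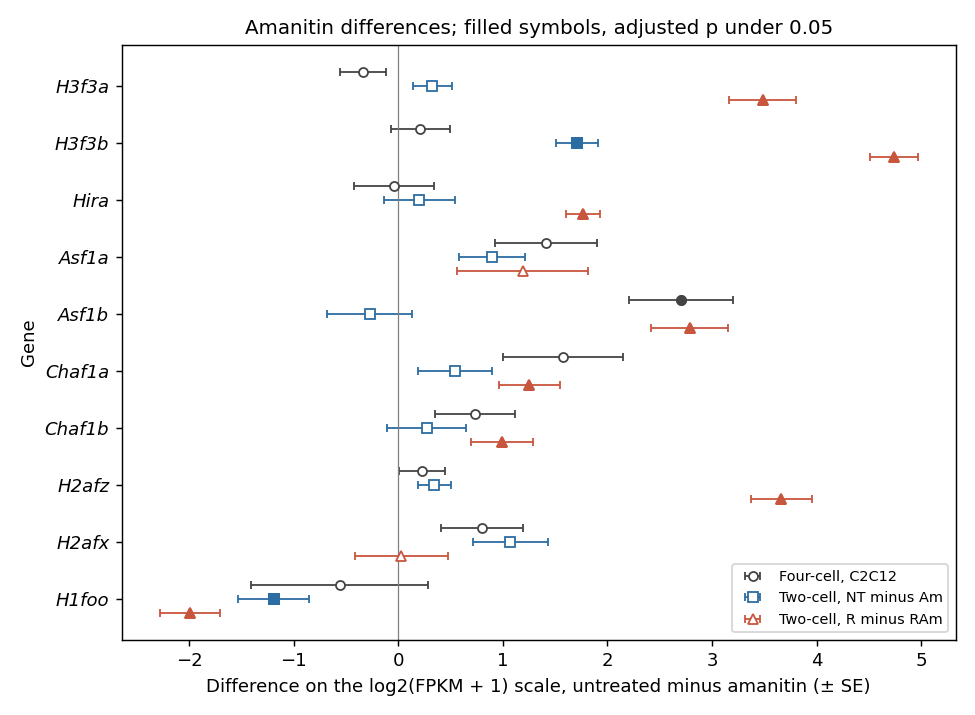
Difference between untreated and α-amanitin libraries on the log2(FPKM + 1) scale for the 10 genes (points, with bars of 1 SE), in four-cell embryos with C2C12 nuclei and in the 2 column sets of two-cell embryos; filled symbols passed an adjusted p of 0.05. H3f3b reaches 4.74 in R and RAm and 1.71 in NT and Am, and H1foo lies below 0 in all 3, called in both two-cell sets and not in four-cell embryos.

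In the fixed lists, all 4 FACT and SPT6 genes, Ssrp1, Supt16, Supt6 and Spty2d1, which handle nucleosomes in the path of the polymerase, were higher untreated over both sets (median 1.22), with 1 of 4 called among NT and Am and 4 of 4 among R and RAm. The shares of all genes higher were 38.9%, 12.7% and 60.5% in these 3 fits, which apply to the other lists as well. Of 17196 genes tested, 3545 were higher under median-of-ratios scaling and 12278 under spike-in scaling. Under median-of-ratios scaling 1 of the 4 was called (median 0.50). Of 10 H2A.Z exchange genes 6 were higher, with Actr6 (3.45 ± 0.83) ahead of Ruvbl1, Dmap1, Znhit1, Ino80 and Ruvbl2, and with 1 called among NT and Am and 7 among R and RAm. Under median-of-ratios scaling 1 of these 10 was higher and 1 lower, and under spike-in scaling all 10 were higher. Of 13 H3 and H4 handling genes 5 were higher, namely Asf1a, Nasp, Hat1, Ipo4 and Tlk2, with 1 and 10 in the sets alone. Under median-of-ratios scaling 2 of the 13 were higher, and under spike-in scaling all 13. Of 9 acidic chaperones 2 were higher, Npm1 (2.88 ± 0.58) and Set (2.61 ± 0.63), and Npm2, the oocyte nucleoplasmin, was lower (-1.43 ± 0.43). In the sets alone 1 and 6 of 8 were higher, with Npm1 at 1.49 and 4.26 and Set at 0.89 (not called, adjusted p 0.0738) and 4.33, and under spike-in scaling 7 of 9 were higher. Of the 2 linker histones tested, H1f0, the replacement form of differentiated cells, was higher (1.75 ± 0.50) and H1foo was lower. Of 6 HIRA and DAXX-ATRX genes 2 were higher, Hira and Daxx (1.30 ± 0.21), and of 4 CAF-1 genes 2 were, Chaf1a and Rbbp4, a subunit shared with other complexes (1.15 ± 0.27), which was not called among NT and Am alone (adjusted p 0.0677). In the sets alone 1 and 4 of the HIRA and DAXX-ATRX genes were higher, and 0 and 4 of the CAF-1 genes. Under spike-in scaling all 6 and all 4 were higher. Cenpa and Oip5 were higher of the 5 CENP-A genes, and among 2 other H2A variants tested H2afj was higher (2.01 ± 0.70). Among NT and Am alone 0 of these 5 and 0 of these 2 were called (Cenpa -0.0077, Oip5 -0.18 and H2afj 0.51), against 4 and 2 among R and RAm. Under median-of-ratios scaling 0 of the CENP-A genes were higher and 1 was lower, and H2afj, H1f0 and Rbbp4 were no longer called. Under spike-in scaling all 5 CENP-A genes were higher.

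Across the 24 libraries, with each gene centred within its table, the gene whose log2(FPKM + 1) followed H3f3b most closely among 9103 genes was Npm1 (Pearson r 0.987), and for H2afz it was H3f3a (0.983). Gm8524, a pseudogene copy of H3f3a that shares 200 bases with it, followed H3f3a at 0.996. The nearest genes for the others were Chek2 for Hira (0.893), Gsk3b for Asf1a (0.883), Gpr137b for Asf1b (0.907), Zfp568 for Chaf1a (0.885), Nup54 for Chaf1b (0.867), Gm33969 for H2afx (0.689) and Ccdc69 for H1foo (0.866). These libraries share the treatment and the column sets, and the coefficients are given as descriptions.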

How the data were processed

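RNA-seq was performed on pools of whole embryos, with polyA RNA reverse transcribed, amplified by PCR and made into Nextera XT libraries, and ERCC spike-in RNA added after lysis. Per the submitters' processing notes, reads were trimmed with Trimmomatic, Trim Galore and cutadapt, mapped to mm10 with STAR and counted with featureCounts; versions are not given in the sources used here. Values are FPKM as the authors deposited them. Multiplied by gene length in kilobases they sum to 1000000 per library. They came in whole multiples of 1 read in the C2C12 table and of a hundredth of a read in the others (40.1% to 50.4% whole, within 0.005 reads), so reads there are approximate. Strand was not stated.

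The 10 genes and the pathway and marker lists were chosen with earlier results of these data known. Libraries were grouped by the labels. FPKM were tested as log2(FPKM + 1) by limma 3.58.1 (R 4.3.3) with its intensity trend, keeping genes that reached 1 FPKM in 3 or more libraries, and p-values were adjusted by Benjamini-Hochberg. All 10 passed the filter in each table. The study's DESeq2 with spike-in scaling was not used, since the values are FPKM, the spike-in share varied widely and the C2C12 table lists 0 spike-ins. Tables were normalized separately and never tested against each other. Named genes were the 10, every called gene of a list or examples of it, and the nearest gene by Pearson r. Within-set fits, the interaction term, the column-set covariate, limma-voom and the sums with copies were added after seeing the data. Scripts for the tests were checked on simulated data. 4 columns of the D and DR table that match no labelled library, and the oryx embryos, were not used. P-values measure the spread between pools. In two-cell limma fits over both column sets without a column-set term, this spread also held the difference between the sets. The exact permutation test over both sets did not keep the sets apart either. The authors' reads were not deduplicated here.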

Additional observations from a re-analysis of the deposited data

Results flagged for a closer look

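The effect of α-amanitin, taken as untreated minus treated on the log2(FPKM + 1) scale, differed between the R and RAm columns and the NT and Am columns for 5 of the 10 genes by a limma interaction term. It was larger in R and RAm by 3.16 for H3f3a (adjusted p 6.21e-05), 3.03 for H3f3b, 1.56 for Hira, 3.06 for Asf1b and 3.31 for H2afz. Over all genes the median of this difference was 0.76, and 0.08 under median-of-ratios scaling, where the 5 values were 1.89, 1.73, 1.33, 1.82 and 2.01, each with an adjusted p under 0.05. Under that scaling H2afx (-1.83, adjusted p 0.0226) and H1foo (-2.13, adjusted p 0.00383) were called too. The share of all genes for which the effect differed was 44.5%, and 36% and 53.2% under median-of-ratios and spike-in scaling. Embryo stage, library and column set cannot be told apart here, since the column names do not say which set is early.

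Among 20 groups of 6 libraries, 1 held a library that stood apart by Dixon's test, which about 1 group in 20 passes by chance. It was H3f3a in the untreated two-cell group, where NT3 had an FPKM of 253 and the gap to the next library took 0.743 of the range.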

How the results depend on the processing

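In four-cell embryos the 1205 genes called became 732 with a pseudocount of 0.1, 284 without the filter and 652 with FPKM of at least 5, and 63 to 1493 with 1 library left out. Between D and DR, 0 genes were called under every alternative run. In two-cell embryos 8158 became 12559 with spike-in scaling and 2411 in NT and Am alone, and 6099 to 9127 with 1 library left out. The replicate numbers of NT and Am and of R and RAm columns were tried as a block. The 6 pairs correlated at 0.0149 to 0.0654, which cannot show whether libraries of the same number shared a batch. The replicate block gave 7371 calls, with Asf1a no longer called (adjusted p 0.053). No paired analysis was run for the four-cell tables, because the columns of one carry S numbers that differ between the groups and are not label numbers and D1, D4 and D5 share only 1 number with DR1 to DR3. No label says whether the consecutive numbers S15 and S16, S17 and S18, and S7 and S8 mark pairs.

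Signs turned as follows. In four-cell embryos Hira turned to 0.013 with a pseudocount of 0.1, and H3f3b to -0.10 and H2afz to -0.087 with median-of-ratios scaling. Between D and DR, spike-in scaling gave H3f3b 1.52, Hira 0.89, Chaf1a 0.83, Chaf1b 1.25, H2afx 0.93 and H1foo 0.90. In two-cell embryos Chaf1b turned to -0.051 and H2afx to -0.090 with median-of-ratios scaling, and Asf1b to -0.27 in NT and Am alone. Leaving out 1 library moved, in four-cell embryos, Hira from -0.32 to 0.12, H3f3b from -0.062 to 0.46 and H1foo from -1.50 to 0.29, and between D and DR, Asf1b from -0.14 to 0.81 and H3f3b from -0.50 to 0.19. The cause was not tested. The fits with edgeR and DESeq2 that had been planned were not run, because the values are FPKM. H2afx in two-cell embryos (6.67 to 64.3 reads per library) and Hira and H1foo in four-cell embryos with C2C12 nuclei rest on few reads.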
